A study of Mus musculus with 50 samples.

Results

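Rhoh, Rab17, Agtrap and 1600002K03Rik are 4 genes that the study listed as altered in both DNA methylation and mRNA by the loss of DNMT3A in muscle. Their mRNA was not analysed here. Every CpG of the methylation table that was assigned to the promoter or the gene body of 1 of these genes was taken. This gave 20 of 205304 measured CpGs, in 5 of 51038 clusters. The authors formed the clusters by grouping CpGs at most 100 bp apart. Their clusters also hold CpGs without counts here, so the measured CpGs of a cluster can lie farther apart. Rhoh had 6 measured CpGs in 2 clusters. Each of the others had 1 cluster, with 1 measured CpG in Rab17, 4 in Agtrap and 9 in 1600002K03Rik. Of the 2 Rhoh clusters, the one with the lower genotype p-value is called its leading cluster and the other its second cluster. As formed by the authors, the clusters held 4 CpGs at Rab17, 66 at Agtrap and 46 at 1600002K03Rik. The leading Rhoh cluster held 17 and the second 15.

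The assay was reduced representation bisulfite sequencing (RRBS) of soleus, a calf muscle rich in slow fibres, in which DNA is cut at CCGG by MspI and unmethylated cytosines are then converted and read as thymine. All mice were homozygous for a floxed Dnmt3a allele (Dnmt3a flox/flox, exon 19 flanked by loxP sites) on a C57BL/6 background and were 12 weeks old, of both sexes. Wild type (WT) mice carried no Cre, and mD3AKO mice also carried the mCK-Cre transgene, driven by the promoter of muscle creatine kinase, which becomes active late in muscle differentiation, so that satellite cells and the non-muscle cells of the tissue keep the gene. Both genotypes were sampled at rest or 10, 30 or 60 min after 30 min of treadmill running, with 5, 5, 5 and 6 WT mice and 5, 5, 7 and 6 mD3AKO mice, 21 and 23 in all. Every sample with a number up to 25 was taken at rest or 60 min, and samples 26 to 50 were the 10 and 30 min mice, so a difference of rest or 60 min from 10 or 30 min cannot be told apart from one between these sample sets.

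DNMT3A places methyl groups on cytosines of CpGs that carried none, and methylation near a gene start often goes with low transcription. Rhoh encodes a GTP-binding protein of blood cells that does not hydrolyse GTP and takes part in T cell receptor signalling. Rab17 is a small GTPase of recycling endosomes, known from polarised epithelial cells. Agtrap encodes the protein that binds the type 1 angiotensin II receptor and promotes its internalisation. 1600002K03Rik carries the symbol Fam174c in RefSeq and belongs to a small family of membrane proteins.

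The sequences of the 4 leading clusters are shown because the measured positions are few and lie in unlike settings. They are from GRCm38 (the assembly that mm10 names), on the + strand and 5′ to 3′, with each CpG that was measured in capitals. Rhoh (ENSMUSG00000029204, + strand) is shown at chr5:65863678-65863707, Rab17 (ENSMUSG00000026304, − strand) at chr1:90962575-90962656, Agtrap (ENSMUSG00000029007, − strand) at chr4:148087304-148087445 and 1600002K03Rik (ENSMUSG00000035595, + strand) at chr10:80172935-80173188.
Rhoh: ggactctgccagtcCGgtgttgcagctttt
Rab17: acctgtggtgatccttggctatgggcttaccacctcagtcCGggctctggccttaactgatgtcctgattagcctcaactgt
Agtrap: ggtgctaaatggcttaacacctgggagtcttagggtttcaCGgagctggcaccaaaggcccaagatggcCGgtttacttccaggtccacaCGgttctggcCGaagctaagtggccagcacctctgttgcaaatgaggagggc
1600002K03Rik: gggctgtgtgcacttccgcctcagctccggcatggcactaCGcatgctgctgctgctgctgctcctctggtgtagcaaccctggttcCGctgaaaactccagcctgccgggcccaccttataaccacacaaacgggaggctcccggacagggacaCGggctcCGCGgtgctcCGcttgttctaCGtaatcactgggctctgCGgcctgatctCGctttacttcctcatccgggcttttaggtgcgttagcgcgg

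In Rhoh and Rab17 the single measured CpG of the leading cluster lay inside an MspI site. The Rhoh CpG, at position 65863692, was 2479 bp downstream of the start of the longest GENCODE transcript, in an intron of it, but only 108 bp downstream of the RefSeq start and in the 5′ untranslated first exon of a shorter transcript. The Rab17 CpG, at position 90962615, was intronic, 7046 bp downstream of the gene start. The 4 Agtrap CpGs lay in the first intron, 627 to 687 bp downstream of the gene start, and counted for both promoter and gene body. The study's pyrosequencing primers for Agtrap, matched to the converted sequence, enclosed 173 bp with 4 CpGs, and all 4 were in the RRBS table. With these primers the study reported significantly lower methylation in mD3AKO than in WT at every Agtrap CpG it assayed. That assay used EDL, a white muscle, and quadriceps, a mixed one, from other mice, all male and older than the mice of the RRBS. Agtrap mRNA was also reported as higher in mD3AKO there. Those data were not analysed here. The 9 CpGs of 1600002K03Rik spanned 31 to 203 bp downstream of the gene start, in the coding part of exon 1 of 3, and also counted for both units. The surroundings ranged from CpG poor to CpG dense: within 500 bp, the observed to expected CpG ratio was 0.14 at Rab17, 0.37 at Agtrap, 0.43 at the Rhoh leading cluster and 0.72 at 1600002K03Rik.

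The total number of methylation calls per sample ranged from 12819404 to 41285655. Bisulfite counts do not show whether Dnmt3a was cut, so the labels were checked by placing each sample between the genotypes (0 for the mean of WT, 1 for that of mD3AKO) at the 500 clusters outside these genes that best separated the remaining samples. WT samples lay between -0.11 and 0.45 and mD3AKO samples between 0.57 and 1.25, so no library went against its label. Soleus is a mixture of cells, and a lower share of cells that carry methylation cannot be told apart from less methylation in each cell.

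All 4 leading clusters had lower methylation levels (methylated calls over all calls) in mD3AKO than in WT muscle. The difference of the means, mD3AKO minus WT, was -28.5 percentage points at Rhoh, -18.0 at Rab17, -9.46 at 1600002K03Rik and -7.02 at Agtrap, and it was -4.04 at the second Rhoh cluster, in the coding part of the last exon. In edgeR's quasi-likelihood test with Benjamini-Hochberg adjustment over all clusters, 2 of the 5 clusters, those of Rhoh and 1600002K03Rik, were called at an adjusted p under 0.05, where 1.09% of all clusters were called. The study chose these genes on the methylation contrast of genotype in these same samples, so the genotype values describe the genes and are no independent evidence of direction.

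At the Rhoh leading cluster, the WT samples ranged from 0 through a median of 37.7% to 78.3%, and the mD3AKO samples from 0 through 6.56% to 39.3%. The means were 39.0% ± 19.5 (SD, n = 21) and 10.5% ± 11.6 (SD, n = 23), and 21 of 23 mD3AKO samples were below the WT mean. The ranges overlapped, and 9 WT samples lay above every mD3AKO sample. The lowest WT sample, at 10 min, had 0 of 28 calls, which allows a level of up to 10.7%. The log2 odds ratio was -2.97 ± 0.61 (SE), with an adjusted p of 0.00459 in edgeR, and only 22 of all clusters had a larger loss in percentage points. Depth was thin here, with 22 to 163 calls per sample, and counting error alone would give an SD of 7.60 points in WT. More calls were made in mD3AKO (3.63 ± 1.27 of every 1000000 calls, SD) than in WT (2.48 ± 1.09), with a two-sided permutation p of 0.00271 (adjusted p of 0.0136 over the 5 clusters), and its part in the level was not tested.

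At rest, the Rhoh leading cluster was methylated at 11.1%, 19.4%, 29.3%, 29.7% and 55.2% in the WT mice and at 0, 0, 5.77%, 6.15% and 25.6% in the mD3AKO mice. After exercise, WT ranged from 0 to 69.4% (10 min), from 33.3% to 78.3% (30 min) and from 28.8% to 59.1% (60 min), against 1.64% to 39.0%, 0 to 39.3% and 0.885% to 15.9% in mD3AKO. The genotypes did not overlap at 60 min and overlapped at the other times. How many of all clusters lack overlap at a given time was not counted, and the gene was chosen on the genotype contrast, so this is a description.

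The second Rhoh cluster was highly methylated at its 5 measured CpGs, 31282 to 31504 bp downstream of the gene start (positions 65892495 to 65892717 of chromosome 5). WT samples ranged from 84.3% through a median of 91.2% to 100%, and mD3AKO samples from 74.9% through 87.2% to 98.4%. The means of 91.5% ± 3.91 (SD, n = 21) and 87.5% ± 6.35 (SD, n = 23) gave a log2 odds ratio of -0.55 ± 0.33 (SE) and an adjusted p of 0.658 in edgeR, so the difference did not pass the threshold. The ranges overlapped, and 7 of 23 mD3AKO samples lay below every WT sample.

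At the Rab17 CpG, WT samples ranged from 19.0% through a median of 55.6% to 94.9%, and mD3AKO samples from 11.3% through 35.8% to 66.1%. The means were 53.7% ± 20.6 (SD, n = 21) and 35.7% ± 16.1 (SD, n = 23), the ranges overlapped widely, and 19 of 23 mD3AKO samples were below the WT mean. The log2 odds ratio was -1.22 ± 0.41 (SE), with an adjusted p of 0.176 in edgeR's quasi-likelihood test, so the difference did not pass the threshold. The study had listed the gene as significantly changed in methylation. The adjusted p was 0.0507 in edgeR's likelihood ratio test and 0.0439 in a quasi-binomial model. Of all 51038 clusters these called 1414 and 1282, against 557 in the quasi-likelihood test. The spread between WT samples was well above the 5.55 points that counting gives at 18 to 242 calls. At rest the WT mice had 41.7%, 56.2%, 58.7%, 64.6% and 94.9%, and the mD3AKO mice 14.9%, 37.5%, 40.2%, 55.2% and 56.0%. The difference of the means was -22.5 points at rest, and after exercise it was -7.79 (10 min), -34.4 (30 min) and -7.69 (60 min), and the genotypes overlapped at each time.

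At the Agtrap cluster, WT samples ranged from 0 through a median of 11.5% to 24.4%, and mD3AKO samples from 0 through 4.45% to 13.1%. The means were 11.6% ± 8.29 (SD, n = 21) and 4.62% ± 3.62 (SD, n = 23), and 21 of 23 mD3AKO samples were below the WT mean. The log2 odds ratio was -1.48 ± 0.49 (SE), with an adjusted p of 0.165 in edgeR, which did not pass the threshold. It was called by edgeR's likelihood ratio test (adjusted p of 0.0252) and by a quasi-binomial model (adjusted p of 0.0307).

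At the 1600002K03Rik cluster, WT samples ranged from 0 through a median of 11.3% to 25.5%, and mD3AKO samples from 0 through 1.07% to 7.87%. The means of 11.3% ± 7.13 (SD, n = 21) and 1.81% ± 2.02 (SD, n = 23) differed 6.21-fold, every mD3AKO sample was below the WT mean, and 13 WT samples were above every mD3AKO sample. The log2 odds ratio was -3.23 ± 0.55 (SE), with an adjusted p of 0.000647 in edgeR. This was the most deeply read of the clusters, with 500 to 3231 calls per sample. At rest the WT mice had 4.22%, 4.47%, 20.0%, 21.2% and 25.5%, and the mD3AKO mice 0.909%, 1.07%, 1.58%, 2.85% and 7.87%. At 10 min the genotypes did not overlap, with 5.24%, 6.31%, 11.2%, 11.3% and 17.3% in WT and 0, 0.179%, 0.664%, 0.976% and 1.09% in mD3AKO. At 30 and 60 min they overlapped, at 60 min through a WT sample with 0 of 780 calls, which allows up to 0.385%. How many of all clusters lack overlap at 10 min was not counted.

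**Figure D1:**
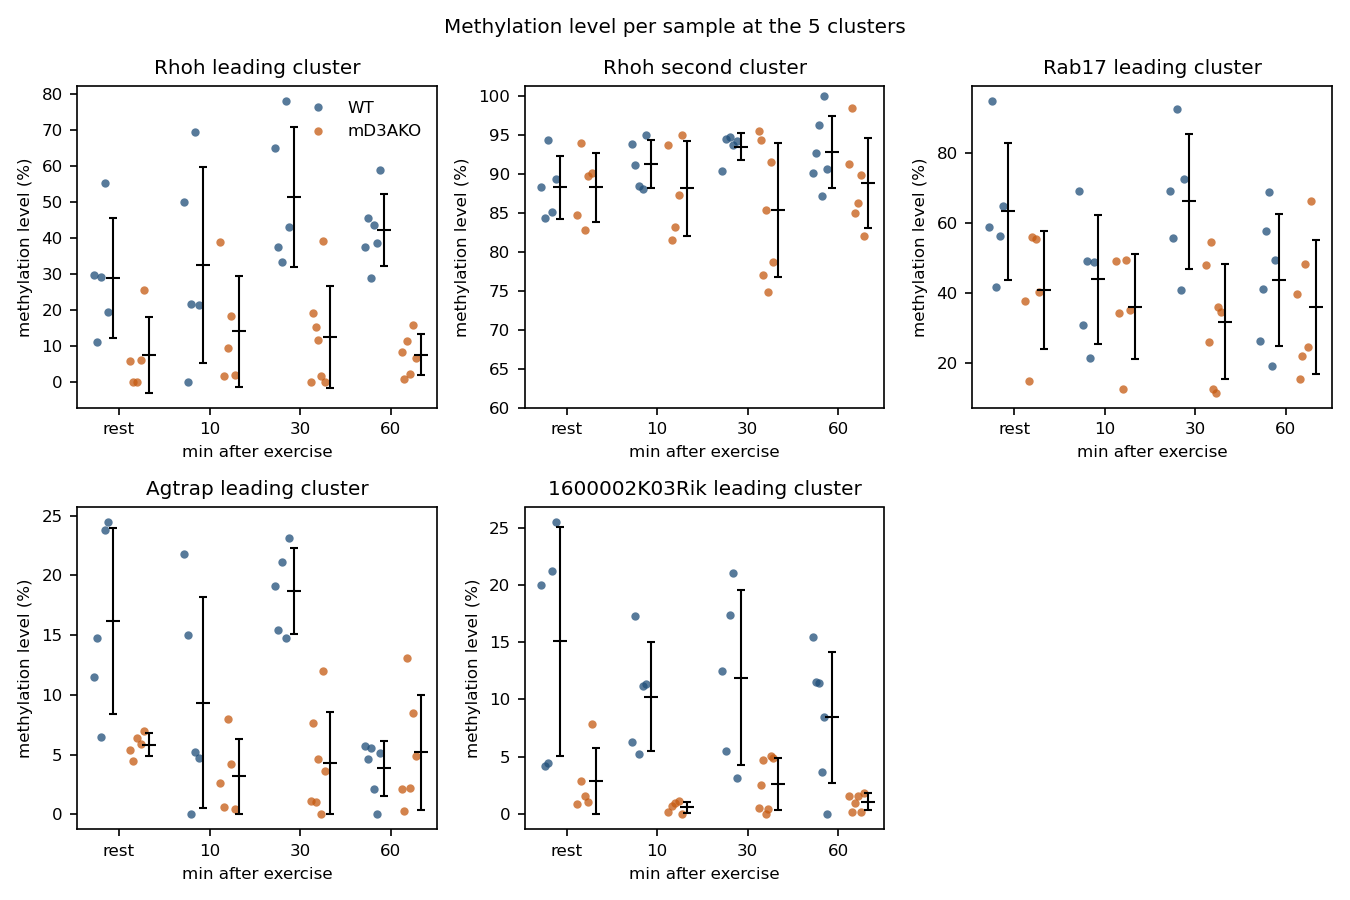
Methylation level in percent (y axis) of every sample at the 5 clusters by time after exercise (x axis), with WT in blue and mD3AKO in orange, and bars for the mean ± SD of each group of 5 to 7 mice. The axis of the second Rhoh cluster starts at 60%. At 60 min the 6 WT samples of Agtrap lie at or below 5.70%, among the mD3AKO samples.

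Among the differences of all clusters, the Rhoh and Rab17 leading clusters lay far in the lower tail and the others nearer the bulk. The median difference of all clusters was -0.455 points, and 62.4% of them were lower in mD3AKO. A loss larger than that of Rab17 was seen in 0.701% of clusters, of 1600002K03Rik in 5.63%, of Agtrap in 10.2% and of the second Rhoh cluster in 20.5%. The size of a loss in points and the call did not go together, since 1600002K03Rik was called with a smaller loss than Rab17.

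**Figure D2:**
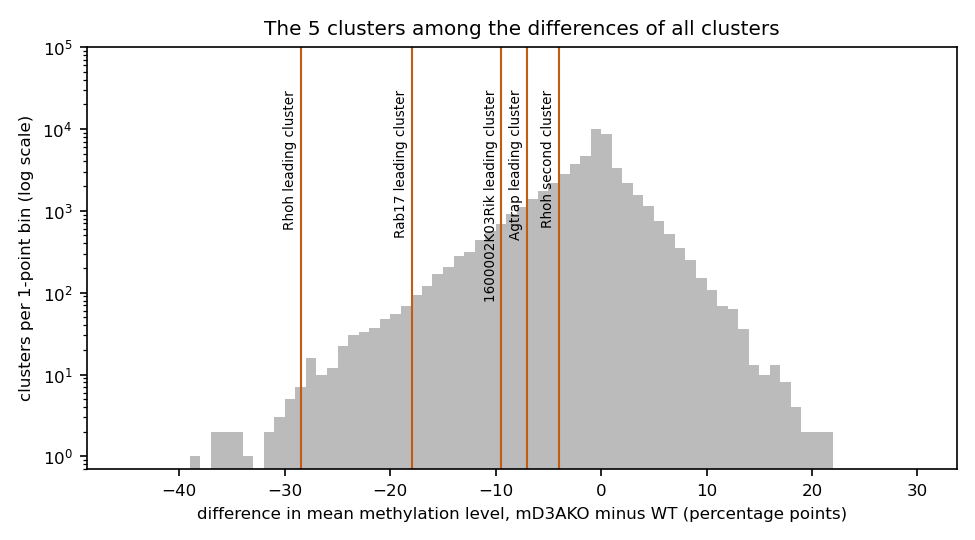
Number of clusters (y axis, log scale) by the difference in mean methylation level, mD3AKO minus WT, in bins of 1 percentage point (x axis), with vertical lines at the 5 clusters of these genes. The Rhoh leading cluster is at -28.5 points and the Rab17 cluster at -18.0, and the other 3 lie between -9.46 and -4.04.

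Of the 20 CpGs taken singly, 19 had a lower mean in mD3AKO, beside 54.9% of all CpGs. In the edgeR test per CpG, 8 of 20 were called, 7 of them in 1600002K03Rik and 1 in Rhoh, where 0.287% of all CpGs were called. The levels of neighbouring CpGs were not alike. In 1600002K03Rik the WT means ran from 6.80% to 15.4% and the mD3AKO means from 0.0875% to 3.24%. The CpG 155 bp downstream of the start fell from 6.80% ± 6.84 (SD, n = 21) to 0.0875% ± 0.178 (SD, n = 23), with an adjusted p of 0.000231 in edgeR, and the CpG 31 bp downstream from 15.4% ± 15.2 to 0.772% ± 1.80, with 0.00111. The 2 CpGs that were not called there, 146 and 203 bp downstream, had adjusted p-values of 0.121 and 0.119. In Agtrap the CpG farthest from the start, 687 bp downstream, had the highest level in both genotypes, 18.1% ± 12.0 and 8.79% ± 8.77 (SD), and none of the 4 passed on its own, with adjusted p-values of 0.539 or more. In the last exon of Rhoh the 4 CpGs 31282 to 31307 bp downstream had differences of -6.07 to -1.26 points, and the CpG 31504 bp downstream was higher by 4.74 points (76.8% ± 24.5 in WT and 81.6% ± 16.1 in mD3AKO). None of these 5 was called, and each had as few as 9 to 11 calls in its shallowest sample.

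Within clusters, the CpGs varied together to different degrees. Over the 44 samples, genotypes pooled, the median Pearson correlation between CpGs was 0.67 in 1600002K03Rik (36 pairs, 0.38 to 0.84), 0.49 in Agtrap (6 pairs, 0.05 to 0.66) and 0.01 in the second Rhoh cluster (10 pairs, -0.14 to 0.26). Group means were not subtracted, so a genotype difference shared by CpGs enters these correlations. CpGs read on the same fragments also share their molecules and their depth, so these values are a description.

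**Figure D3:**
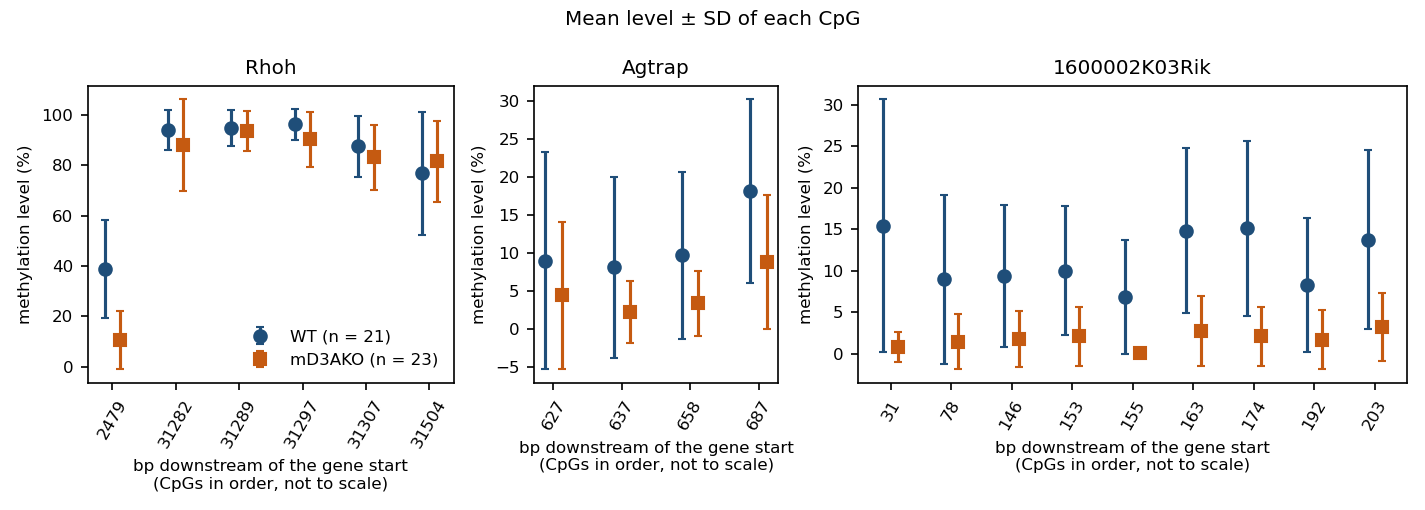
Mean methylation level in percent (y axis) ± SD of each CpG in WT (blue circles, n = 21) and mD3AKO (orange squares, n = 23), ordered by distance from the gene start in bp (x axis, not to scale) for Rhoh, Agtrap and 1600002K03Rik. All 9 CpGs of 1600002K03Rik have lower means in mD3AKO, and the last Rhoh CpG has a higher one.

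Promoters and gene bodies were tested as whole units. The promoter of 1600002K03Rik, which held the same 9 CpGs as its cluster, was called (adjusted p of 0.000677 in edgeR), and that of Agtrap was not (adjusted p of 0.264), where 0.789% of promoters were called. Rhoh and Rab17 had no CpG assigned to a promoter by the authors, although the leading Rhoh CpG lay 108 bp downstream of the RefSeq start. Among gene bodies, where 1.42% were called, Rhoh (adjusted p of 0.00320) and 1600002K03Rik (adjusted p of 0.000232) were called, and Agtrap (0.125) and Rab17 (0.155) were not. The Rhoh gene body summed the single measured CpG of the leading cluster with the 5 of the last exon, and WT muscle had 85.2% ± 4.53 (SD, n = 21) where mD3AKO muscle had 72.8% ± 10.6 (SD, n = 23).

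Measured neighbours within 15 kb of these genes gave a comparison with the surrounding DNA. None of the 9 neighbouring clusters was called by edgeR's quasi-likelihood test, and 2 had an unadjusted p under 0.05. Of all clusters 1.09% were called and 4882 of 51038 had such a p, so no call among so few does not set the neighbours apart. The pair of CpGs 3314 bp upstream of the Rab17 start had 42.0% ± 20.8 in WT and 38.9% ± 14.8 in mD3AKO (SD, n = 21 and 23), and the CpG 5513 bp upstream 10.7% ± 13.1 and 3.28% ± 6.17, with an unadjusted p of 0.0354 in edgeR. Upstream of 1600002K03Rik, a CpG assigned to Cirbp was nearly unmethylated in both genotypes (0.143% and 0.393%), and 6 CpGs assigned to Efna2 downstream likewise (0.462% and 0.489%). The 3 CpGs 12332 bp upstream of 1600002K03Rik had 5.92% ± 3.72 and 3.03% ± 3.63, with an unadjusted p of 0.0132. No other measured cluster lay within 15 kb of Rhoh, and 1 lay beyond the end of Agtrap, at 53.1% ± 16.5 and 47.5% ± 21.6. Whether these neighbours differed from the clusters of the genes was not tested.

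**Figure D4:**
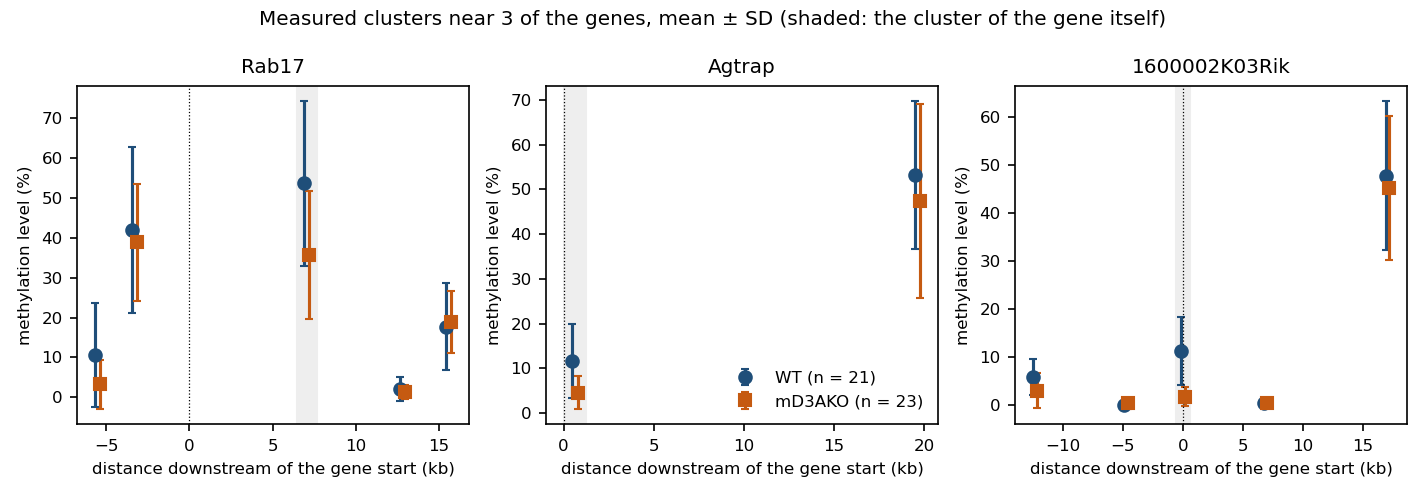
Mean methylation level in percent (y axis) ± SD in WT (blue circles, n = 21) and mD3AKO (orange squares, n = 23) of each measured cluster within 15 kb of Rab17, Agtrap and 1600002K03Rik, by distance downstream of the gene start in kb (x axis), with the cluster of the gene shaded and the start dotted. The mean of 1600002K03Rik in WT is 11.3%, and the nearest neighbours on both sides are below 0.5%.

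The time after exercise was not used to choose these genes. No member cluster was called for time or for the interaction of genotype and time by edgeR's quasi-likelihood test. Of all 51038 clusters, 0 were called in either test. None of the 5 had an unadjusted p under 0.05 in either test. Over all clusters, 1460 of 51038 had such a p for time and 1399 for the interaction. The likelihood ratio test and the quasi-binomial model also called none of the 5, and each gave 1 unadjusted p under 0.05 for time, at Agtrap. For time, 3286 of 51038 clusters had such a p in the likelihood ratio test and 2671 in the quasi-binomial model. Over all clusters, the likelihood ratio test called 10 for time and 7 for the interaction, and the quasi-binomial model 0 for both. The lowest adjusted p for time was 1.00 in the quasi-likelihood test, 0.669 in the likelihood ratio test and 0.950 in the quasi-binomial model. In the 30 comparisons of a time with rest within a genotype none was called, and 1 had an unadjusted p under 0.05. Over all clusters none was called in these comparisons either, and 1430 to 2190 of 51038 had such a p in each. A count of 1 in 30 therefore does not set these genes apart.

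The comparison with an unadjusted p under 0.05 was Agtrap in WT at 60 min, where 1873 of 51038 clusters had such a p. The WT mice had 6.51%, 11.5%, 14.8%, 23.8% and 24.4% at rest, 0, 4.75%, 5.26%, 15.0% and 21.8% at 10 min and 14.7%, 15.4%, 19.1%, 21.1% and 23.1% at 30 min. The 6 WT mice at 60 min ranged from 0 through a median of 4.87% to 5.70%. They lay below every WT mouse at rest or 30 min, and among those at 10 min, while 0 of 292 calls in the lowest allows a level of up to 1.03%. How many of all clusters show such a separation was not counted. The comparison is described because it had the lowest p of the 30. The means were 16.2% ± 7.80 (SD, n = 5) at rest and 3.85% ± 2.30 (SD, n = 6) at 60 min, both among the samples numbered 1 to 25. The log2 odds ratio of 60 min against rest was -2.39 ± 0.95 (SE), with an unadjusted p of 0.0161 and an adjusted p of 1.00 in edgeR, so the difference did not hold up over all clusters. Leaving out any 1 sample gave log2 odds ratios of -2.71 to -1.92.

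The mD3AKO mice showed no such low group at 60 min. They had 4.45%, 5.39%, 5.86%, 6.39% and 6.98% at rest, 0.431%, 0.606%, 2.65%, 4.25% and 8.03% at 10 min, 0 through a median of 3.61% to 12.0% at 30 min and 0.283% through 3.54% to 13.1% at 60 min. The genotypes therefore did not overlap at 30 min, when the means were 18.7% ± 3.59 (SD, n = 5) and 4.29% ± 4.27 (SD, n = 7). The share of all clusters without overlap at 30 min was not counted. At 60 min the mean was 1.33 points higher in mD3AKO, at 5.18% ± 4.81 (SD, n = 6). The interaction of genotype and time at Agtrap had an unadjusted p of 0.168 and an adjusted p of 1.00 in edgeR, so the effect of genotype was not shown to differ between times.

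Tested at each time apart, the effect of genotype was called at none of the 5 clusters by edgeR's quasi-likelihood test, with adjusted p-values of 0.450 or more, and 9 of the 20 tests had an unadjusted p under 0.05. Over all clusters, 2393 to 2671 of 51038 had such a p at each time and 3 to 9 were called, and the members were chosen on the contrast of genotype. The largest of these 20 was that of 1600002K03Rik at 10 min, with a log2 odds ratio of -4.41 ± 1.14 (SE) and an unadjusted p of 0.000388. Within the sample sets, the difference at Rhoh was -28.6 points in samples 1 to 25 and -28.8 in samples 26 to 50, and that at 1600002K03Rik -9.58 and -9.32. At Rab17 it was -14.4 and -21.4 points, and at Agtrap -3.99 and -10.2. No member cluster was called within a set of 11 WT and 11 mD3AKO or of 10 WT and 12 mD3AKO samples, with unadjusted edgeR p-values at Rhoh of 0.000187 and 0.0103 and at 1600002K03Rik of 0.00117 and 7.82e-05. Of all 51038 clusters, the same test called only 25 in samples 1 to 25 and 33 in samples 26 to 50.

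Sex was not used to choose these genes either. With sex in the model, no member cluster was called for sex (lowest unadjusted p of 0.0750, adjusted p of 1.00) or for the interaction of genotype and sex (lowest unadjusted p of 0.0928, adjusted p of 1.00) in edgeR. Of all 51038 clusters, 0 were called in either test, so this is no trait of these genes. The nearest to a sex difference was the Rhoh leading cluster, with 44.9% ± 15.9 (SD, n = 10) in WT females and 33.5% ± 21.6 (SD, n = 11) in WT males, and 13.4% ± 11.7 (SD, n = 11) and 7.79% ± 11.4 (SD, n = 12) in mD3AKO. At Rab17 the mD3AKO males had 30.7% ± 16.6 (SD, n = 12) and the females 41.2% ± 14.4 (SD, n = 11), while in WT the males had the higher mean, 56.5% ± 21.0 (SD, n = 11) against 50.5% ± 20.8 (SD, n = 10).

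Whether samples high at 1 gene were high at another was examined over the 44 samples after subtracting the mean of each group. None of the 6 pairs of leading clusters passed, with adjusted p-values of 0.558 in permutation tests within groups. The largest on the scale of levels was Agtrap with 1600002K03Rik, with a Pearson r of 0.29 (permutation p of 0.170) and a Spearman coefficient of 0.23 (permutation p of 0.200, adjusted p of 0.472). Its r was 0.29 without the 2 samples farthest from the median of Agtrap, 0.51 in samples 1 to 25 and 0.04 in samples 26 to 50. The other r ranged from -0.18 to 0.18 and the other Spearman coefficients from -0.14 to 0.18. For Rhoh with Agtrap, r was 0.18, and 0.37 without the 2 samples farthest from the median of Rhoh. On log2 ratios of methylated to unmethylated calls it was 0.37 over all samples (permutation p of 0.0268, adjusted p of 0.161), the largest of the 6 pairs on that scale. Counted per sample, 18 of 23 mD3AKO samples were below the WT median at all 4 leading clusters, 4 at 3 of them and 1 at 2, whereas the WT samples ranged from 0 to 4. Group means were not subtracted for this count. The genes were chosen on the genotype contrast in these same samples, so the count is a description and no evidence that the genes vary together.

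Genes related to these were examined as lists. Of 58 other Rab genes 46 were measured, in 97 clusters, of which 2 were called lower and none higher by edgeR's quasi-likelihood test, beside 1.09% called of all clusters. The likelihood ratio test called 4 and the quasi-binomial model and limma 3 each, and the median difference was -0.397 points beside -0.455 for all clusters. They were those of Rab8b, which takes part in transport to the plasma membrane (26.6% ± 15.5 in WT and 6.16% ± 5.35 in mD3AKO, SD, n = 21 and 23, adjusted p of 0.00404), and Rab15, an endosomal Rab (10.2% ± 4.08 and 5.68% ± 2.51, adjusted p of 0.0447). Of 15 genes of the renin-angiotensin system, 9 were measured in 16 clusters, and none was called by edgeR's quasi-likelihood or likelihood ratio test, the quasi-binomial model or limma, with none at an unadjusted p under 0.05 and a median of -0.803 points. Of Fam174a and Fam174b, 1 was measured, in 2 clusters, and likewise none was called or had an unadjusted p under 0.05 (median of 0.758 points). Over all clusters, 4882 of 51038 had such a p in the quasi-likelihood test.

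The 4 further genes that the study listed with these, Aldh1l1, Pax7, Eef1a1 and Sim2, were chosen on the same samples. Of their 20 clusters, 95% had a lower mean in mD3AKO, and 9 were called lower by edgeR's quasi-likelihood test, at least 1 in each gene, beside 1.09% called of all clusters. The likelihood ratio test called 11, the quasi-binomial model 9 and limma 10, and the median difference was -7.62 points. The cluster with the lowest p was one of 12 CpGs in Pax7, the transcription factor of satellite cells, with 8.20% ± 4.76 and 1.36% ± 1.20 (SD, n = 21 and 23) and an adjusted p of 1.00e-05 in edgeR. Among marker genes of cells that the muscle may hold, none of 26 clusters of 10 blood cell genes was called by the quasi-likelihood test (1 by each of the other 3 tests, 5 with an unadjusted p under 0.05, median of 0.248 points), and none of 23 clusters of 11 muscle fibre genes (none by the other 3, 1 with an unadjusted p under 0.05, median of -0.065 points). Of all clusters, the quasi-likelihood test called 1.09% and gave 4882 of 51038 an unadjusted p under 0.05. The part of these cells in the values of Rhoh was not tested.

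The clusters most alike in their 8 group means, among those of at least 2 CpGs in other genes, were found by the root mean square difference in percentage points. For the Rhoh leading cluster they were those of Spry1 (6.56 points apart) and Spry4 (6.80), both encoding inhibitors of receptor tyrosine kinase signalling. For Rab17 they were in Ptov1 (6.11) and Bicc1 (6.46), for Agtrap in Cend1 (2.23) and Fgfr2 (2.32), and for 1600002K03Rik in Coro1c (1.80) and Raet1e (2.16). Spry1 had 33.9% in WT and 13.9% in mD3AKO, and Coro1c 10.9% and 2.25%. The measure compares levels of single genes over the same samples and carries no test.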

How the data were processed

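RRBS was run on soleus of 50 mice, and 44 of them have counts here. The authors trimmed the reads with Trim Galore 0.4.0 (cutadapt 1.9.1), aligned them to mm10 with Bismark 0.18.1, per the labels and the study's methods, required 8 or more reads per CpG in each sample and left out sex chromosomes. For each CpG and sample the authors deposited the raw count of methylated calls and that of unmethylated ones, and their gene and cluster assignments were used as given. RRBS reads carry no molecular identifiers, so that intervals, floors (3 calls for a level of 0) and counting errors cover counting only.

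Groups came from the labels. The labels of sample 7 conflict, and it is among the 6 samples not used here. Counts were summed per cluster, promoter (3000 bp upstream to 1000 bp downstream of a start) and gene body and modelled for all features in edgeR 4.0.16 (R 4.3.3) with a coefficient per sample, 8 group means and a dispersion without trend. The genotype effect is the mean of the 4 mD3AKO groups minus that of the 4 WT groups. Quasi-likelihood F tests were two-sided with Benjamini-Hochberg adjustment over all features, and the threshold was 0.05. The common dispersion came from every 10th feature for CpGs and refitted alternatives. Alternatives were edgeR's likelihood ratio test, a quasi-binomial model (0.5 added to each count), limma 3.58.1 on log2 ratios (1 added), at least 20 calls per CpG, clusters split at 50 or 200 bp, sex as a covariate, either sample set alone and leaving out each sample. Associations were tested with 100000 permutations within groups. The tests were checked on simulated data.

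The 4 genes, the gene lists and the tests were chosen with earlier results of these data known. Named genes were the members, list genes with a called cluster (at most 5 per list) and the 2 clusters most alike for each leading cluster. Gene symbols were matched in GENCODE M21 for 13708 of 13722 identifiers. One list of related genes is not reported here.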

Additional observations from a re-analysis of the deposited data

Results flagged for a closer look

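In 3 of the 40 sets of 1 cluster and 1 group, a single sample stood apart from the others of its group by Dixon's criterion, and chance alone flags about 1 in 20 such sets. The mD3AKO sample 24, at rest, was high at 2 genes. At the Rhoh leading cluster it had 25.6% (10 of 39 calls, 95% Wilson interval 14.6% to 41.1%), against 0 to 6.15% in the other 4 mice, and at 1600002K03Rik 7.87% (1143 calls, 6.45% to 9.58%), against 0.909% to 2.85%. Its position between the genotypes at other clusters was 0.69, within the range of mD3AKO samples. At the second Rhoh cluster the WT sample 31, at 30 min, had 90.4% (719 calls, 88.0% to 92.4%), against 93.7% to 94.8% in the other 4 mice.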

How the results depend on the processing

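No paired analysis was possible because each sample number in the labels occurs once. Each leading cluster kept the direction of its genotype effect under every alternative run. Leaving out each sample in turn was judged by the unadjusted p, in refits of the members and every 50th cluster with the dispersion of all samples, against the largest p called over all clusters with all samples (0.000544). By that criterion no leading cluster changed sides, and the log2 odds ratio stayed between -3.21 and -2.79 at Rhoh, -1.33 and -1.08 at Rab17, -1.62 and -1.35 at Agtrap and -3.38 and -3.11 at 1600002K03Rik, and the difference in level between -30.4 and -26.5, -19.7 and -15.9, -7.60 and -6.38, and -10.0 and -8.75 points. The calls of Rhoh and 1600002K03Rik were lost in samples 1 to 25 (-3.25 and -2.88) and in samples 26 to 50 (-2.70 and -3.58), each with fewer samples, so that 0 member clusters were called in either set. Most calls of other clusters were lost as well, with 25 and 33 of all clusters called in these sets against 557 with all samples. The quasi-binomial model called 4 of the 5 clusters, with Rab17 (-1.11) and Agtrap (-1.23) in addition, and the likelihood ratio test 3, with Agtrap (-1.48). The Agtrap promoter and gene body were called by the likelihood ratio test (-1.48 and -1.47) and the quasi-binomial model (-1.23 for both), and the Rab17 gene body by the likelihood ratio test (-1.21). The cause of these differences between tests was not tested. Over all clusters, the likelihood ratio test called 1414, the quasi-binomial model 1282 and limma 895, against 557 in the quasi-likelihood test. Of all 9761 promoters, the likelihood ratio test called 188 and the quasi-binomial model 164, against 77 in the quasi-likelihood test. Of all 12391 gene bodies they called 328 and 284, against 176. At a coverage minimum of 20, Rab17 and the second Rhoh cluster dropped out and Agtrap kept 2 of its 4 CpGs. Depth limits single samples most at Rhoh and Rab17, where the widest 95% Wilson intervals spanned 38.0 and 41.7 points.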
